A study of Mus musculus with 20 samples.

Results

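The genes described here are 10 that most mouse tissues express and that beta cells are known to keep nearly silent, Slc16a1, Ldha, Acot7, Mgst1, Igfbp4, Maf, Smad3, Fcgrt, Zfp36l1 and Oat. They were chosen by name, and each was followed by the probe set that carries its symbol alone and has the highest mean over the 20 arrays. Of the 10 genes, 9 were measured in this way, out of 19938 genes on the arrays. Fcgrt has no such probe set in the annotation used here and was not analysed. All samples are C57bl6/J mouse islets on Affymetrix MoGene 1.0 ST arrays. Islets of female or male donors were placed under the kidney capsule of female hosts and taken as grafts at pregnancy day 12.5 (P12.5) or from non-pregnant hosts (NP), with 3 arrays in each of these 4 groups. The islets they were set against were isolated directly from the pancreas of female mice, with 4 arrays at P12.5 and 4 NP. The hosts were adult mice made diabetic with streptozotocin, a beta cell toxin, whereas no such treatment is described for the mice whose islets were not transplanted, and the labels mark the arrays of those islets as analysed again from earlier work. Streptozotocin, array batch and transplantation therefore cannot be told apart. Arrays of a group are labelled as biological replicates without an animal being given, so the tests measure only how these arrays vary, which may be technical in part. In bulk tissue, fewer cells of a type and less RNA per cell cannot be told apart either.

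The set is often called the disallowed genes of the beta cell. Slc16a1 encodes MCT1, which carries lactate and pyruvate across the plasma membrane, and Ldha encodes the lactate dehydrogenase subunit that favours the making of lactate from pyruvate. With both kept low, circulating pyruvate and lactate do not set off insulin release, and the carbon of glucose goes to the mitochondria. Loss of this silence, with loss of markers such as Mafa and Ucn3, is a described feature of beta cells that lose their mature state, and the same genes are active in kidney tubule, fibroblast and immune cells, which a graft can also hold.

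One layer of the silencing is known at the RNA level, since microRNAs of the miR-29 family bind the transcript of Slc16a1 in mouse islets. Their genes lie on chromosome 6 (miR-29a at chr6:31062673-31062694 and one copy of miR-29b at chr6:31063025-31063047, both on the minus strand) and on chromosome 1 (miR-29c at chr1:195037600-195037621 and the other copy of miR-29b at chr1:195037091-195037113, both on the plus strand). The mature sequences, from RefSeq (build GRCm38.p6), are shown 5′ to 3′ because the 7 capital letters, bases 2 to 8, are the seed that pairs with a target and are the same in all 3.
miR-29a-3p: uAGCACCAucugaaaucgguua
miR-29b-3p: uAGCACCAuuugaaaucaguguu
miR-29c-3p: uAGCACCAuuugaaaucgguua
The probe set for Mir29a, chosen after its values were seen, read 3.3 to 4.2 in the grafts and 2.9 to 3.2 in the islets. That for Mir29b-1, the copy of miR-29b on chromosome 6, read 3.4 to 3.8 in grafts and 3.4 to 3.7 in islets, which overlap. All of these lie under the lower quartile of every array (4.7 to 4.9). Both probe sets are for genes of precursors, so the levels of the mature microRNAs are not known from them.

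The promoters were read as well, and no link to the silencing was tested. RefSeq gave windows of 250 bases before a transcript start for 9 of the 10 genes, all but Maf, and 11 windows in all (build GRCm38.p6). The E-box CACGTG, which reads the same on both strands and is bound by MYC and USF factors, occurred in 2 of the 11 windows, those of Slc16a1 and of the first of 2 Ldha starts, against 6.02% of all 32851 windows. The shorter hypoxia response core ACGTG, which each CACGTG contains, was in the same 2 windows and in 16.6% of all. The 2 windows are shown on the gene's strand, with CACGTG in capitals, because these genes form the lactate pair of the set.
Slc16a1 (chr3:104638414-104638663, plus strand): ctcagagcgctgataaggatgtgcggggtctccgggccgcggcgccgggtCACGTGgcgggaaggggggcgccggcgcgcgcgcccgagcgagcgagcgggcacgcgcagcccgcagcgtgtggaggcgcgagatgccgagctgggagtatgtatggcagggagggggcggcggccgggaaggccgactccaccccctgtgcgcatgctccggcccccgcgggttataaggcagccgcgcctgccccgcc
Ldha (chr7:46845554-46845803, plus strand): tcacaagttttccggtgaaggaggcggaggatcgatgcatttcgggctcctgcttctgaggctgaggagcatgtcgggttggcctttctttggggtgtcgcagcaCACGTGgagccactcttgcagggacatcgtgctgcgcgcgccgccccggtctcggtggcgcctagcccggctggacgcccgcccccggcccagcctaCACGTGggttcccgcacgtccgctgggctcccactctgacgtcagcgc
The capitals begin 200 bases before the start of Slc16a1 and 145 and 48 bases before that of Ldha. TGANTCA, searched on both strands as an AP-1 site, was in 1 of the 11 windows, that of Zfp36l1, against 6.75% of all, and TATAAA in 2 of 11, those of Igfbp4 and Zfp36l1, against 12.4%. A match is a description of the letters only.

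Values below are log2 levels as deposited, to 1 decimal, and changes are differences of log2 means ± SE from limma. Across the arrays the median was 5.9 to 6.0, replicates of a group correlated at r = 0.971 to 0.989 across probe sets, and the top value was 13.4 in NP islet array 1 against 14.4 to 14.6 in the others. Ins2, one of the insulin genes, was at 10.8 to 11 in grafts and 10.2 to 11 in islets. In islets the probe sets of Slc16a1, Mgst1 and Zfp36l1 read below that median on all 8 arrays, whereas those of Ldha, Acot7, Igfbp4, Maf, Smad3 and Oat read above it. Signal depends on the probes, so these readings give no amounts, and levels of different probe sets are not compared with each other.

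Slc16a1 had the largest change of the set. It read 8.6, 7.7 and 8.3 in female P12.5 grafts, 9.0, 8.8 and 7.5 in female NP grafts, 8.3, 7.8 and 9.1 in male P12.5 grafts and 9.0, 7.9 and 8.4 in male NP grafts. In islets it read 4.7, 4.7, 4.9 and 4.7 at P12.5 and 4.7, 4.9, 5.0 and 4.6 in NP. The islet values lie near the lower quartile of the arrays, where differences are compressed, and every graft array lay more than 2 units above every islet array. In female NP grafts the gene was 12.4-fold higher than in NP islets (3.63 ± 0.34, n = 3 and 4, adjusted p = 3.47e-06), and in female P12.5 grafts 10.9-fold higher than in P12.5 islets (3.45 ± 0.34, adjusted p = 8.04e-06). Male grafts gave 3.63 in NP and 3.65 at P12.5 against the same islet arrays, a comparison in which donor sex differs as well.

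Ldha showed a smaller change from a higher islet level. Its values were 8.5, 8.5 and 9.1 in female P12.5 grafts, 9.1, 9.0 and 8.5 in female NP grafts, 8.9, 8.5 and 9.2 in male P12.5 grafts and 9.1, 9.1 and 9.0 in male NP grafts. The islets gave 8.0, 7.9, 7.7 and 7.9 at P12.5 and 7.9, 8.0, 8.1 and 7.7 in NP. The lowest graft array (8.5) was above the highest islet array (8.1), and the change was 0.94 ± 0.18 in female NP grafts (adjusted p = 0.00106) and 0.83 ± 0.18 in female P12.5 grafts (adjusted p = 0.00883). The P12.5 call was lost without female P12.5 graft array 3 (0.63, adjusted p = 0.0737). Male grafts were higher by 1.14 in NP and 0.99 at P12.5 (adjusted p = 0.000216 and 0.00143).

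Most of the other genes of lactate and pyruvate handling were not called. Of 11 measured, 2, 0, 1 and 1 were called higher in female NP, female P12.5, male NP and male P12.5 grafts. Of all probe sets, 5.99%, 2.83%, 5.94% and 4.7% were called higher and 5.02%, 1.22%, 5.25% and 2.56% lower. A difference from these shares was not tested. The same shares stand beside the partner genes of the other members below. Slc16a7, a second monocarboxylate carrier (MCT2), was higher in female NP grafts by 2.05 ± 0.32 (adjusted p = 0.000307), and Ldhb, the partner subunit of Ldha, by 1.03 ± 0.29 (adjusted p = 0.0153). Ldhc, the testis form of the subunit, read lower in male NP grafts (-0.66, adjusted p = 0.00194). Its values lie near the lower quartile of the arrays, at 4.2 to 5.1 in all grafts and 4.6 to 5.1 in all islets. For the lactate exporter Slc16a3 (MCT4) the changes ran from -0.075 to 0.058, with adjusted p from 0.568 to 0.937, and for the pyruvate kinase Pkm from -0.2 to -0.033. Bsg, the chaperone that brings MCT1 to the membrane, had changes of -0.43 to -0.18, none of which reached the 1.5-fold minimum.

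Oat, the mitochondrial ornithine aminotransferase, read 7.4, 7.4 and 8.2 in female P12.5 grafts, 8.4, 8.4 and 7.5 in female NP grafts, 7.9, 7.3 and 8.6 in male P12.5 grafts and 8.2, 8.0 and 8.1 in male NP grafts. Islets gave 6.7, 6.5, 6.3 and 6.2 at P12.5 and 6.8, 6.6, 6.6 and 6.2 in NP. All grafts lay above all islets, by 1.55 ± 0.27 in female NP grafts (2.93-fold, adjusted p = 0.000739) and 1.24 ± 0.27 in female P12.5 grafts (adjusted p = 0.0112). The P12.5 call was lost without female P12.5 graft array 3 (0.98, adjusted p = 0.0854). Among 8 measured neighbours in ornithine, arginine and proline metabolism, the polyamine enzyme Odc1 was called higher in NP grafts of both donor sexes (0.67 in female and 0.63 in male grafts) and the proline oxidase Prodh in female NP and male P12.5 grafts (0.67 and 0.59). Arg1 and Aldh18a1 were called in none of these 4 comparisons.

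Mgst1, a membrane-bound glutathione transferase, was at 6.9, 6.4 and 7.1 in female P12.5 grafts, 6.8, 7.2 and 6.2 in female NP grafts, 6.7, 6.3 and 7.9 in male P12.5 grafts and 6.5, 6.7 and 6.6 in male NP grafts. In islets it was at 4.3, 4.3, 4.6 and 4.8 at P12.5 and 4.3, 4.8, 4.3 and 4.4 in NP, below or near the lower quartile of the arrays. The groups did not overlap, and the change was 2.28 ± 0.30 in female NP grafts (4.87-fold, adjusted p = 7.44e-05) and 2.30 ± 0.30 in female P12.5 grafts (adjusted p = 0.000119). Of 5 other genes of glutathione enzymes, not all of its family, Gsta4, which clears lipid aldehydes, was called higher in all 4 graft comparisons (1.97 to 2.55). Gpx1, the cytosolic glutathione peroxidase, was called higher in all but male P12.5 grafts (0.83 in female NP grafts). Mgst2 was called in male NP grafts (0.73). Mgst3 had changes of -0.47 to -0.36 (adjusted p of 0.0581 or more) and was not called.

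Acot7, which cleaves long-chain acyl-CoA, was the exception among the 9. It read 6.8, 6.9 and 7.1 in female P12.5 grafts, 7.2, 7.1 and 6.6 in female NP grafts, 6.9, 6.9 and 7.5 in male P12.5 grafts and 7.2, 7.0 and 6.9 in male NP grafts, against 7.0, 7.1, 6.6 and 6.7 in P12.5 islets and 6.7, 7.0, 7.1 and 6.6 in NP islets. The groups overlapped almost fully, and the changes of 0.083 to 0.25 had adjusted p of 0.378 to 0.821. Its relative Acot9 was called higher in female NP (0.94), female P12.5 (0.67) and male NP grafts (1.08). That was the 1 gene called among 5 measured acyl-CoA thioesterases.

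Igfbp4, a secreted protein that binds insulin-like growth factors, stood at 8.9, 9.3 and 10.4 in female P12.5 grafts, 10.1, 9.6 and 8.8 in female NP grafts, 9.4, 9.0 and 10.3 in male P12.5 grafts and 10, 9.3 and 9.2 in male NP grafts. Islets stood at 6.7, 6.7, 6.3 and 6.4 at P12.5 and 6.6, 6.7, 6.6 and 6.4 in NP. The lowest graft array (8.8) was more than 2 units above the highest islet array (6.7), and P12.5 graft arrays 3 of both donor sexes were the highest. The change was 7.59-fold in female NP grafts (2.93 ± 0.35, adjusted p = 3.69e-05) and 8.05-fold in female P12.5 grafts (3.01 ± 0.35, adjusted p = 4.02e-05). Of 8 other genes of the IGF system, Igf1 (2.06 to 2.43) and Igfbp5 (1.87 to 3.01) were called higher in all 4 graft comparisons. Pappa, the protease that cleaves IGFBP4, was called at P12.5 alone, by 0.67 in female and 0.90 in male grafts, and Igfbp7 in male P12.5 grafts (0.81). Igf2, Igf1r, Igfbp2 and Igfbp3 were not called.

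Of the regulators, Maf, which encodes the transcription factor c-MAF, read 7.1, 7.2 and 8.3 in female P12.5 grafts, 7.6, 7.3 and 7.4 in female NP grafts, 7.8, 7.4 and 8.3 in male P12.5 grafts and 7.3, 7.3 and 7.2 in male NP grafts. Islets read 6.4, 6.2, 6.2 and 6.4 at P12.5 and 6.2, 6.2, 6.4 and 6.5 in NP. Every graft exceeded every islet array, by 1.11 ± 0.23 in female NP grafts (adjusted p = 0.00207) and 1.23 ± 0.23 in female P12.5 grafts (adjusted p = 0.00316), and male P12.5 grafts had the largest change (1.53, adjusted p = 0.000342). Its relative Mafa, the factor of mature beta cells, was lower in female NP grafts (-0.73 ± 0.18, adjusted p = 0.00687), and its changes in the other 3 comparisons were -0.52 to -0.15 and not called. Mafa was the 1 gene called among 5 measured relatives.

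Zfp36l1 encodes a protein that binds AU-rich elements and speeds RNA decay. Its levels were 6.8, 6.8 and 8.2 in female P12.5 grafts, 7.2, 7.3 and 7.1 in female NP grafts, 7.5, 6.7 and 8.3 in male P12.5 grafts and 8.3, 7.2 and 7.5 in male NP grafts, against 5.6, 5.7, 5.2 and 5.1 in P12.5 islets and 5.4, 5.6, 5.5 and 5.1 in NP islets. Grafts (6.7 to 8.3) and islets (5.1 to 5.7) did not overlap. The change was 1.8 ± 0.35 in female NP grafts (adjusted p = 0.00151), 1.87 in female P12.5, 2.27 in male NP and 2.10 in male P12.5 grafts. Its relative Zfp36l2 was called higher in all 4 comparisons (0.73 to 0.99) and Zfp36 in female P12.5 grafts alone (0.88, adjusted p = 0.00171).

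Smad3, the signal carrier of TGF-beta and activin receptors, changed least among the members that separated grafts from islets. It read 6.7, 7.0 and 7.4 in female P12.5 grafts, 7.1, 7.0 and 6.8 in female NP grafts, 7.1, 6.8 and 7.5 in male P12.5 grafts and 7.5, 7.1 and 7.1 in male NP grafts, whereas all 8 islet arrays read 6.5 or 6.6. Only male NP grafts passed (0.68 ± 0.16, adjusted p = 0.0048), and not without male NP graft array 1 (0.55, under the fold minimum). Female NP and P12.5 grafts gave 0.42 and 0.43 (adjusted p = 0.0576 and 0.108), and male P12.5 grafts 0.53 with an adjusted p of 0.0322 but a fold of 1.45. The call was made without female P12.5 graft array 1 (0.60, adjusted p = 0.0424) and without male P12.5 graft array 2 (0.70, adjusted p = 0.00752). In the TGF-beta pathway, the ligand Tgfb3 (1.91 to 2.98) and the receptor Tgfbr2 (1.47 to 1.73) were called higher in all 4 comparisons and the ligand Tgfb1 at P12.5 (0.83 in female and 0.93 in male grafts), out of 8 genes measured. Smad2 and the inhibitor Smad7 were not called.

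In place of Fcgrt, the alpha chain of the neonatal Fc receptor, its partner chain B2m could be read. B2m was at 11.2 to 11.9 in grafts and 9.6 to 10 in islets and was higher by 1.64 to 1.86 in the 4 comparisons. B2m also serves MHC class I, and the 4 measured Fc gamma receptors Fcgr1, Fcgr2b, Fcgr3 and Fcgr4, which mark myeloid cells, were called higher in each comparison as well (0.98 to 1.57).

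**Figure D1:**
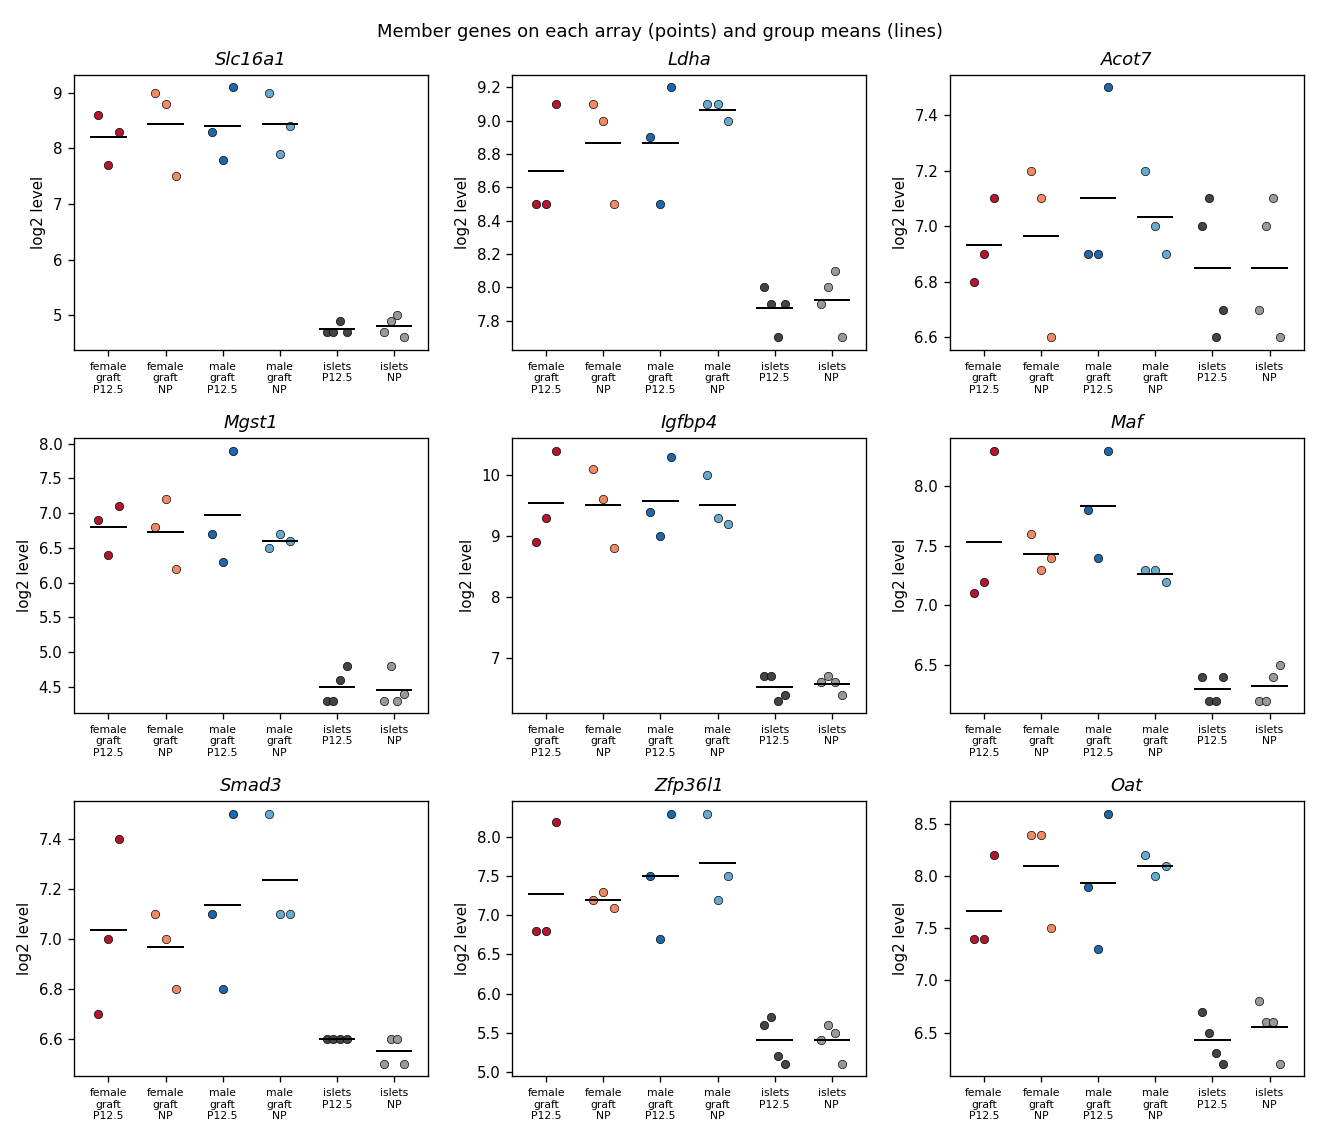
Log2 level (y axis, a separate scale in each panel) of the 9 measured genes on each of the 20 arrays (points), with group means (lines), for 4 graft groups and 2 islet groups. In 8 panels all 12 graft points lie above all 8 islet points, and in that of Acot7 they overlap.

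Set side by side, 7 of the 9 genes were called higher (adjusted p under 0.05 and at least 1.5-fold) in female NP grafts, against 5.99% of all 35511 probe sets. The same 7 were called in female P12.5 grafts (2.83% of all probe sets) and in male P12.5 grafts (4.7%), and they and Smad3 made 8 of 9 in male NP grafts (5.94%). None was called lower (5.02%, 1.22%, 5.25% and 2.56% of probe sets were, in female NP, female P12.5, male NP and male P12.5 grafts). These comparisons share islet arrays within each state, so they are not independent of each other. The median change of the 9 was 1.55, 1.24, 1.55 and 1.53 in female NP, female P12.5, male NP and male P12.5 grafts, whereas that of all probe sets was -0.075 to -0.067. In 8 of the 9, all 12 graft arrays lay above all 8 islet arrays, a pattern found in 3.26% of all probe sets. The members were picked with earlier results of these arrays known, and these counts are descriptions.

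**Figure D2:**
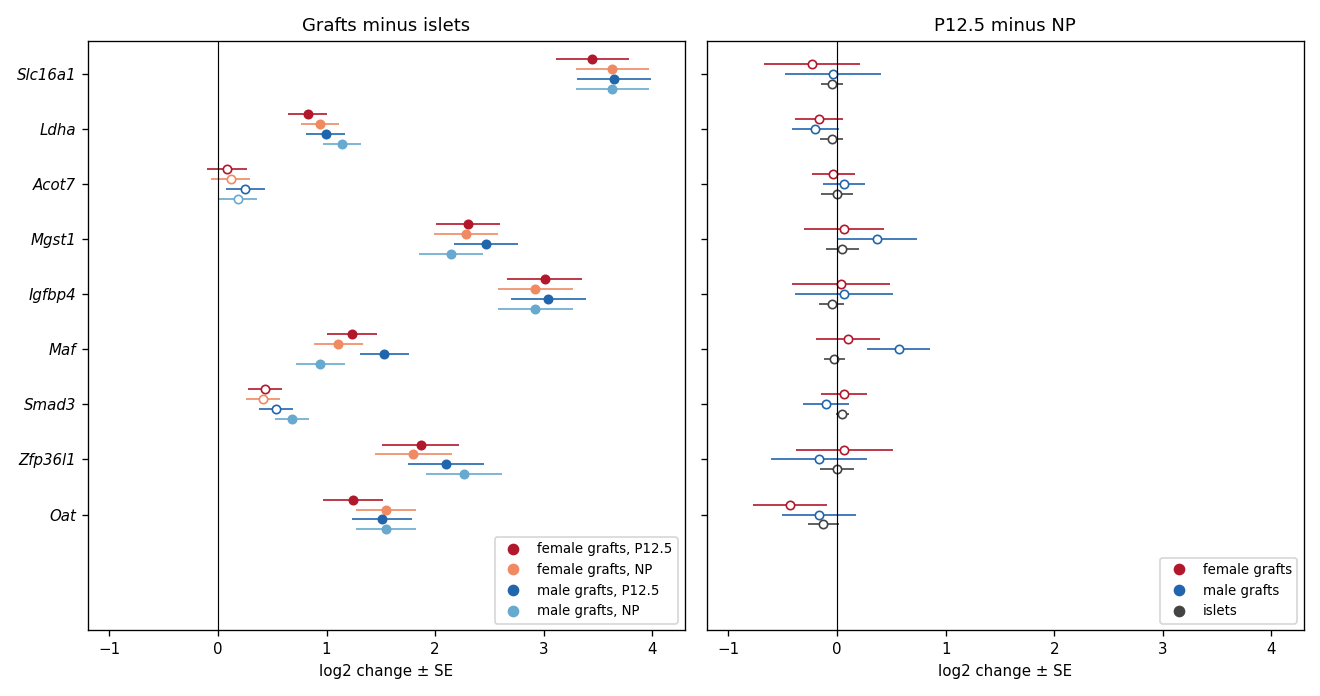
Log2 change ± SE (x axis) of the 9 genes for grafts minus islets of the same state (left) and for P12.5 minus NP in grafts and islets (right). Filled points passed the test and the fold minimum, open points did not. On the left Slc16a1 lies at 3.45 to 3.65 and Acot7 at 0.25 or below, and on the right all points are open.

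No member passed the test for pregnancy. In islets, female grafts and male grafts, 0 of 9 members were called by limma, where 0.724%, 1.7% and 0.932% of all probe sets were, and none had an unadjusted p under 0.05. With donor sexes together (3.96% of probe sets called) the count was also 0. In islets the changes ran from -0.13 ± 0.15 for Oat to 0.05 ± 0.15 for Mgst1. In grafts of both donor sexes they ran from -0.30 ± 0.24 for Oat to 0.33 ± 0.21 for Maf. The largest in 1 donor sex was Maf in male grafts (0.57 ± 0.29, adjusted p = 0.31), where the P12.5 arrays read 7.4 to 8.3 and the NP arrays 7.2 to 7.3. Those ranges do not overlap, and every other member overlapped between P12.5 and NP grafts of either donor sex. With so few arrays in a group, ranges can fail to overlap by chance. The share of all probe sets with such a gap was not worked out, so the gap of Maf is a description only. With SEs of 0.20 to 0.45 in 1 donor sex, changes of the size seen in grafts were not detectable. With the mean of 26 immune markers as a covariate, 2 members were called higher at P12.5 in male grafts, against 3.71% of all probe sets called in that fit, Maf (1.01, adjusted p = 0.0289) and Igfbp4 (0.85, adjusted p = 0.0482). With the kidney mean Maf had 0.54 and Igfbp4 0.052, and with the stromal mean 0.39 and -0.28, and 0 members were called in either fit. In male grafts the immune mean was itself 7.44 to 7.90 at P12.5 and 7.83 to 8.32 in NP. The immune fit therefore does not separate pregnancy from the immune level.

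The interaction of transplantation and pregnancy in female donors called 0 of 9 members (0.0507% of probe sets), with changes from -0.31 ± 0.39 for Oat to 0.13 ± 0.32 for Maf. Between male and female grafts 0 of 9 were called in NP (0.0141%) and 0 at P12.5 (0.0113%). The largest difference was 0.47 ± 0.45 for Zfp36l1 in NP, with values of 8.3, 7.2 and 7.5 in male and 7.2, 7.3 and 7.1 in female grafts.

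A few partner genes were called for pregnancy, and most were not. None was called among the measured partners of Acot7, Smad3, Fcgrt and Zfp36l1. The shares of all probe sets called are those given above for the members. Glul, glutamine synthetase, was lower at P12.5 in female grafts (-0.93 ± 0.14, adjusted p = 0.0167) and in male grafts (-1.0 ± 0.14, adjusted p = 0.0137). It was the 1 gene called of 8 measured partners of Oat. Slc16a7 was lower at P12.5 over both donor sexes (-1.13 ± 0.30, adjusted p = 0.0328). Mafa was higher at P12.5 in female grafts (1.0 ± 0.21, adjusted p = 0.0385) with 0.13 ± 0.21 in male grafts, a difference that was not tested. It was the 1 gene called of 5 measured relatives of Maf. In islets Igfbp5 was higher at P12.5 (1.0 ± 0.09, adjusted p = 0.00107), and Gstm1 lower (-0.68). Each was the 1 gene called of its list, out of 8 partners of Igfbp4 and 5 of Mgst1.

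Other genes that beta cells keep low were mostly higher in grafts as well. Of 19 such genes, 13 were called higher in female NP grafts, 15 in female P12.5, 14 in male NP and 18 in male P12.5 grafts, and none lower. The shares of all probe sets called higher were 5.99%, 2.83%, 5.94% and 4.7%. Leaving out 1 array gave counts of 10 to 14, 11 to 13, 11 to 14 and 12 to 18 in the same order. Smoc2, a matricellular protein, changed by 2.85 to 3.30, Pdgfra, a growth factor receptor of fibroblasts, by 2.60 to 3.02, Arhgdib by 2.12 to 2.98 and the transglutaminase Tgm2 by 2.03 to 2.24. Pdgfra was at 7.1 to 9.4 in grafts and 5.1 to 5.6 in islets. Hk1, a low-Km hexokinase and a classical member of the class, had changes of 0.13 to 0.30 and was not called in any of the 4. The count in male P12.5 grafts was 14 without P12.5 graft arrays 3 of both donor sexes, which was an added choice made after the data were seen.

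Among markers of mature and immature beta cells, calls were few and mostly of lower levels. In female NP, female P12.5, male NP and male P12.5 grafts, 5.02%, 1.22%, 5.25% and 2.56% of all probe sets were called lower. Called higher were 5.99%, 2.83%, 5.94% and 4.7%. Median changes of the mature markers were -0.042, -0.24, -0.11 and -0.42, against -0.075 to -0.067 for all probe sets. For 8 markers of other endocrine cells they were -0.083, -0.25, -0.30 and -0.39. Of 19 measured mature markers, those called were Mafa and Nkx6-1 in female NP grafts (-0.73 and -0.66), none in female P12.5 grafts, Nkx6-1 and Nkx2-2 in male NP grafts (-0.73 and -0.60) and Isl1, Kcnj11 and Pdx1 in male P12.5 grafts (-0.71, -0.63 and -0.62). The count of 2 in female NP grafts was 1 without NP islet array 1 or 4 or female NP graft array 1 or 2, and that in male NP grafts was 1 without NP islet array 1 or 2 or male NP graft array 3. The last 3 calls became 0 without male P12.5 graft array 3 and 8 without male P12.5 graft array 2. Of 7 measured genes of immature or dedifferentiated beta cells, Hk2 was called higher in male NP grafts (0.83) and in no other group, and the neuropeptide gene Npy was lower in all 4 comparisons (-2.02 to -0.95). Sox4, a transcription factor of endocrine progenitors, was called lower in female NP (-0.59) and male NP grafts (-0.73). The female NP count of 2 lower genes was 1 without NP islet array 2 or 3 or female NP graft array 1. The call of Npy in female P12.5 grafts was lost without either P12.5 islet array 1 or 2, or without female P12.5 graft array 2 or 3. The progenitor factor Neurog3 and the aldehyde dehydrogenase Aldh1a3, both measured, were not called. Among 14 hypoxia genes, 3, 1, 2 and 2 were called higher in female NP, female P12.5, male NP and male P12.5 grafts. The peptide hormone gene Adm had the largest change among them in the groups other than female P12.5. The count was 2 in female P12.5 grafts without female P12.5 graft array 2 and 4 in male NP grafts without male NP graft array 1. In male P12.5 grafts it was 1 without P12.5 islet array 2, 3 or 4 or male P12.5 graft array 3. Bnip3, a mitophagy receptor, was called lower in male P12.5 grafts, where the count of 1 lower gene was 2 without male P12.5 graft array 1 and 3 without array 2.

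Markers of other cells differed between grafts and islets on the same arrays. Among all probe sets, 5.99%, 2.83%, 5.94% and 4.7% were called higher in female NP, female P12.5, male NP and male P12.5 grafts. Since these shares differ, the counts below are not compared between the 4 groups. The mean of 27 kidney markers was 5.75 to 7.88 in grafts and 5.42 to 5.56 in islets, and 17, 5, 15 and 14 of them were called higher in female NP, female P12.5, male NP and male P12.5 grafts. The count of 5 fell to 0 without female P12.5 graft array 3, to 1 without female P12.5 graft array 1 or P12.5 islet array 2, 3 or 4, and to 3 without P12.5 islet array 1, and that of 14 to 8 without male P12.5 graft array 1 or 3. The mean of 22 stromal markers was 8.08 to 9.69 in grafts and 6.37 to 6.77 in islets, with 17, 16, 18 and 17 called higher. The mean of 26 immune markers was 7.15 to 8.32 in grafts and 5.99 to 6.15 in islets, with 22, 20, 25 and 20 called higher. Dcn, a fibroblast proteoglycan, was at 10.2 to 12.1 in grafts and 6.0 to 7.4 in islets, and Lyz2, a lysozyme of myeloid cells, at 9.7 to 10.7 and 5.8 to 6.7.

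The acinar mean was lower on all grafts than on all islets, whereas the endothelial and beta cell means overlapped between them. The shares of all probe sets called lower were 5.02%, 1.22%, 5.25% and 2.56% in female NP, female P12.5, male NP and male P12.5 grafts. The mean of 16 endothelial markers was 6.28 to 7.66 in grafts and 7.24 to 7.46 in islets, with 8, 3, 8 and 2 called lower, in female NP, female P12.5, male NP and male P12.5 grafts. The count of 8 in female NP grafts was 5 without female NP graft array 2 and 4 without array 3, that of 3 was 1 without female P12.5 graft array 1, and that of 2 was 1 without P12.5 islet array 3 or male P12.5 graft array 1 or 2. The mean of 13 markers of exocrine acinar cells was 4.93 to 5.28 in grafts and 7.63 to 9.55 in islets, with 11 called lower in each comparison. The mean of 19 beta cell markers was 9.82 to 10.52 in grafts and 10.39 to 10.61 in islets.

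**Figure D3:**
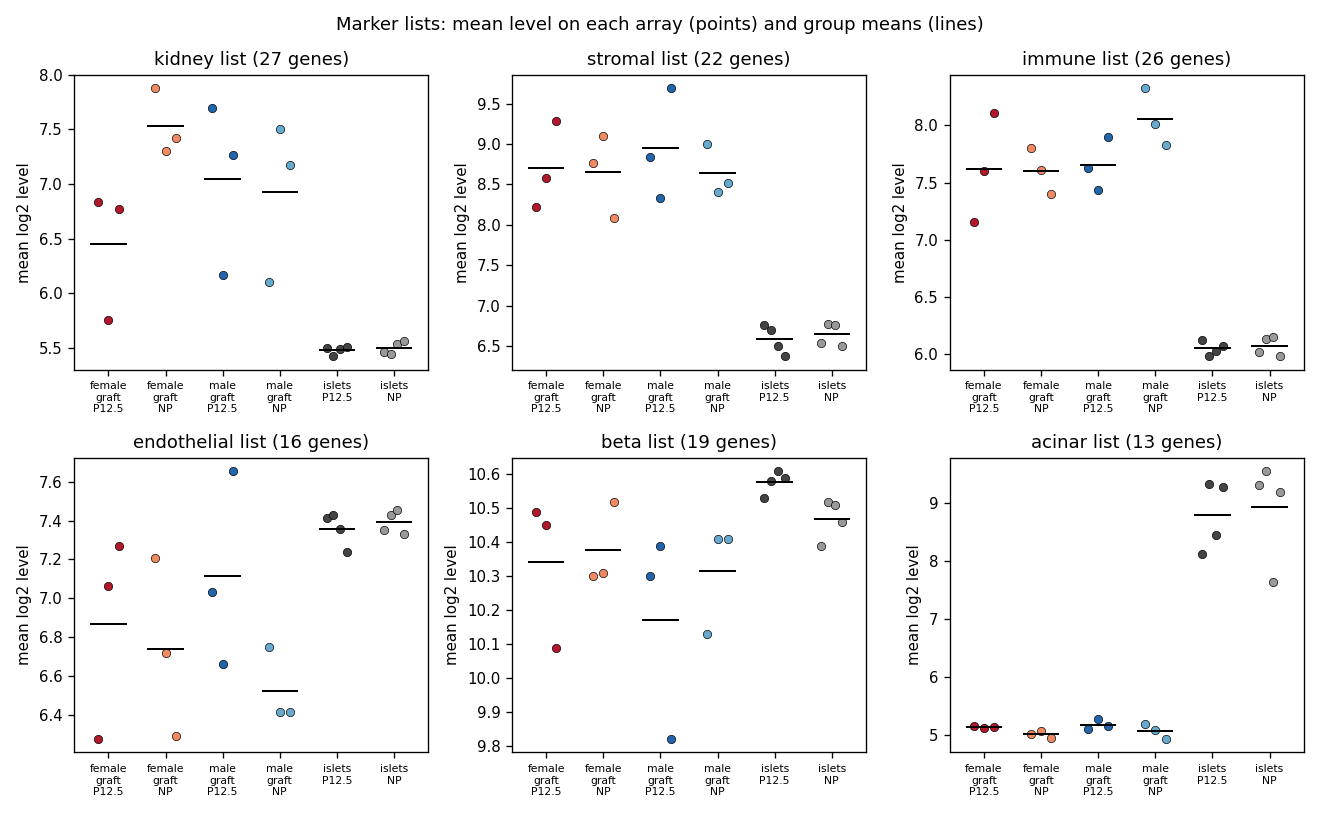
Mean log2 level (y axis, a separate scale in each panel) of 6 marker lists on each of the 20 arrays (points), with group means (lines). Kidney, stromal and immune means are higher on all grafts than on all islets, the acinar means are lower, and the beta means run from 9.82 on male P12.5 graft array 3 to 10.61.

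The graft array with the lowest kidney mean was read on its own. Female P12.5 graft array 2 had a kidney mean of 5.75, close to the highest islet array (5.56), while its stromal mean was 8.58 and its immune mean 7.60. Kidney signal was not absent from it, since on every graft array Slc34a1 was at 7.0 or more, against 6.1 or less in islets. Umod was likewise at 5.8 or more, against 5.6 or less. On array 2 Slc16a1 was at 7.7, against 5.0 on the highest islet array, Igfbp4 at 9.3 against 6.7, Mgst1 at 6.4 against 4.8 and Zfp36l1 at 6.8 against 5.7. Ldha, Maf, Smad3 and Oat also exceeded every islet array on it (8.5, 7.2, 7.0 and 7.4), and Acot7 did not (6.9 against 7.1). Male NP graft array 1 had the next lowest kidney mean (6.10), the highest immune mean (8.32) and Slc16a1 at 9.0.

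Over the 12 graft arrays each member was set against 5 marker lists, which made 45 pairs, with permutation p-values adjusted over the 45. All 9 members rose with the stromal mean, by Pearson's r, from r = 0.673 for Slc16a1 (adjusted p = 0.0311) to r = 0.895 for Igfbp4 (adjusted p = 0.0009). By Spearman's rho 7 of the 9 passed, with rho = 0.932 for Igfbp4 (adjusted p = 0.000675), but not Slc16a1 (rho = 0.621, adjusted p = 0.0621) or Maf (rho = 0.531, adjusted p = 0.121). All 9 fell with the beta cell mean by r, from r = -0.645 for Slc16a1 (adjusted p = 0.0312) to r = -0.891 for Acot7 (adjusted p = 0.0009). By rho 7 passed, with rho = -0.843 for Acot7 (adjusted p = 0.0069), but not Slc16a1 (rho = -0.618, adjusted p = 0.0621) or Mgst1 (rho = -0.553, adjusted p = 0.0999). With the immune mean 6 passed by either measure, led by Smad3 (r = 0.900, adjusted p = 0.0009, and rho = 0.938, adjusted p = 0.000675), while Slc16a1 (r = 0.373), Maf (0.378) and Mgst1 (0.220) did not. With the endothelial mean 5 passed by r and 4 by rho. None passed with the kidney mean by either measure, where r ran from -0.021 for Smad3 to 0.470 for Oat (adjusted p = 0.168).

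Stromal and beta cell means were themselves opposed over these arrays (r = -0.935), and the kidney mean was not related to the stromal mean (r = 0.067). Leaving out the 2 arrays farthest from the median of the list lowered the stromal r of Maf to 0.299 the beta cell r of Mgst1 to -0.246 and of Maf to -0.356, and the endothelial r of Mgst1 to 0.104, so these relations rest on those arrays. For the other 8 members the stromal r was then 0.532 to 0.831. With the mean of each graft group subtracted, 6 members passed with the stromal, 7 with the immune, 5 with the endothelial, 9 with the beta cell and 0 with the kidney mean, and Maf was then related to the immune mean (r = 0.838, adjusted p = 0.0146). Without male P12.5 graft array 3, which had the highest stromal mean and the highest or joint highest value of every member but Igfbp4, 19 of the 45 pairs passed, against 29 with it.

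**Figure D4:**
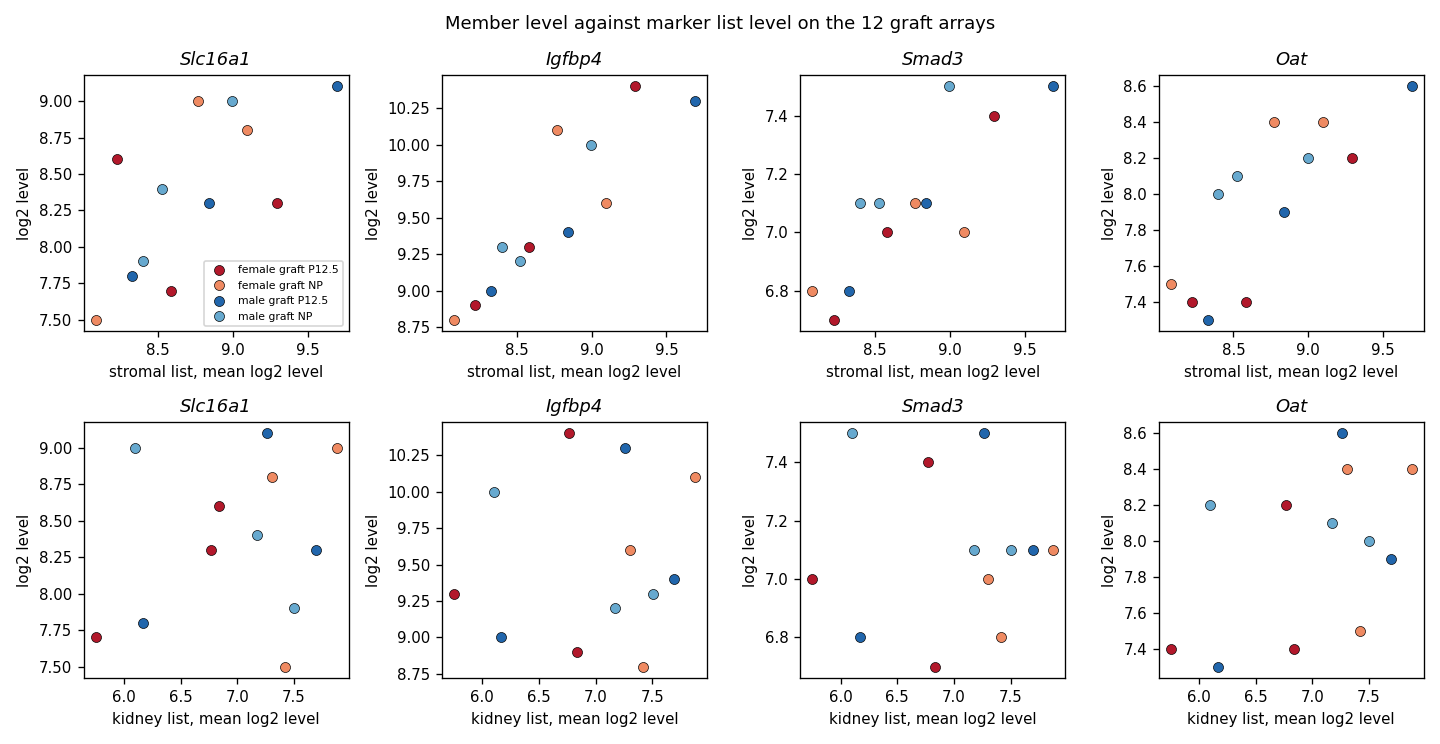
Log2 level of 4 members (y axes) against the mean log2 level of the stromal list (top) and the kidney list (bottom) on the 12 graft arrays, coloured by group. The top panels rise from left to right (r = 0.673 for Slc16a1, 0.895 for Igfbp4, 0.839 for Smad3 and 0.802 for Oat), and the bottom panels show r of 0.233, 0.088, -0.021 and 0.470.

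The graft comparisons were refitted with a list mean as a covariate. With the kidney mean, the changes in female NP grafts remained above 0 for all 9 members, with Slc16a1 at 3.27 ± 0.61 (adjusted p = 0.0249) as the 1 called. Igfbp4 had 2.69 ± 0.63 and Zfp36l1 1.54 ± 0.64 in that fit, against 2.93 ± 0.35 and 1.8 ± 0.35 without the covariate. With it 4 were called in female P12.5, 5 in male NP and 3 in male P12.5 grafts, and of all probe sets 0.417% were called in female NP, 2.09% in female P12.5, 5.25% in male NP and 1.44% in male P12.5 grafts. With the stromal mean, Slc16a1 was higher by 1.99 ± 0.50 in female NP grafts (adjusted p = 0.0301) and 2.00 ± 0.49 in male NP grafts (adjusted p = 0.035). At P12.5 it was at 1.72 and 1.71 in female and male grafts (adjusted p = 0.155 and 0.226). In the same fit for female NP grafts, Igfbp4 had 0.72, Mgst1 0.88, Maf 0.048, Ldha -0.077, Oat -0.17 and Zfp36l1 -0.35, none of them called, and Acot7 was called lower (-0.87 ± 0.23, adjusted p = 0.0388). Of all probe sets, 5.15%, 0.605%, 3.6% and 0.487% were called with the stromal mean in female NP, female P12.5, male NP and male P12.5 grafts, and 3.34%, 0.262%, 1.66% and 0.231% with the immune mean. With the immune mean, Slc16a1 had 1.91 to 2.31 in the 4 comparisons, not called (adjusted p = 0.102 to 0.329), and Smad3 was called lower in NP grafts of both donor sexes (-0.88 in female and -0.999 in male grafts). These fits carry the slope within groups across a gap in which no array lies, 6.77 to 8.08 for the stromal, 6.15 to 7.15 for the immune and 5.56 to 5.75 for the kidney mean, and they raised the SE of Slc16a1 from 0.34 to as much as 0.97. Which cells carried the transcripts cannot be told apart in bulk grafts.

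**Figure D5:**
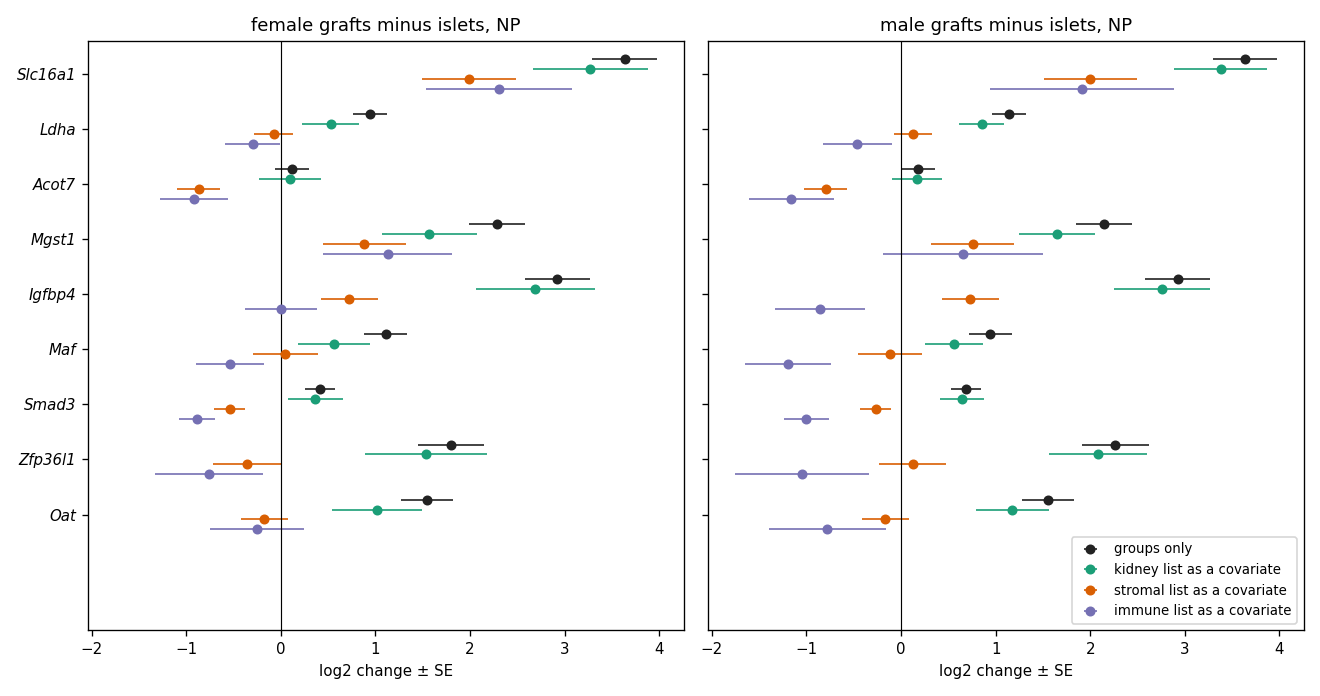
Log2 change ± SE (x axis) of the 9 genes for female (left) and male (right) NP grafts minus NP islets, with groups as the only terms and with the kidney, stromal or immune list mean as a covariate. Slc16a1 stays at 1.91 or above in every fit, whereas with the stromal or immune mean Ldha lies between -0.46 and 0.13.

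The genes whose levels followed each member most closely over the 20 arrays, as a description that reflects the split between grafts and islets, were the following. Slc16a1 was most like Igfbp6 (r = 0.993) and Sulf1 (0.991), and Igfbp4 most like C1s1 (0.994) and Prelp (0.992). Mgst1 was most like Igf1 (0.986) and Ogn (0.983), Maf most like Cp (0.974) and Sfrp2 (0.970), and Smad3 most like Adgre5 (0.980) and Msn (0.974). Zfp36l1 came closest to Flna (0.984) and Itgam (0.982). Ldha and Oat were each other's closest gene (0.982), followed by Il33 for Ldha and Fstl1 for Oat (0.977 each). Acot7 had the weakest likeness, to Tm4sf1 (0.835) and Gsn (0.809).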

How the data were processed

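Each probe set has a log2 level per array, deposited to 1 decimal, which the authors made from the raw array files by robust multichip analysis in aroma.affymetrix; the genome build of that step is not given in the sources used here. All 20 sample columns of the 35511 probe sets were used, and 0 columns were left out. The platform annotation gave 21789 probe sets with 1 symbol, 1621 with several and 12101 with none. Groups came from the sample labels. Differences were tested with limma 3.58.1 in R 4.3.3 (lmFit, eBayes and a mean per group, with no other term), on all 20 arrays for comparisons with islets, on the 12 graft arrays within grafts and on 8 arrays within islets. P-values are two-sided and adjusted by Benjamini-Hochberg over all probe sets, and a call needs an adjusted p under 0.05 and a fold of at least 1.5. The script was tested on simulated data. Relations with marker lists used Pearson's r and Spearman's rho with 100000 permutations (Python 3.11.15, SciPy 1.17.1). Named were all members, their partner genes and the 2 genes most like each member. Of each list, up to 4 called genes with the largest change were named per direction and comparison. Some genes outside that rule are named too, such as Hk1, Neurog3 and Aldh1a3, which were not called, and Tgm2 in male P12.5 grafts. The members and lists were chosen with earlier results of these data known. Sequences came from RefSeq (GRCm38.p6). Alternatives were other normalization, filters, moderation, probe sets, arrays, a replicate block, list covariates and leaving out arrays. The number of arrays limits the precision, and the median SE of a log2 change was 0.131 for grafts against islets, 0.151 within grafts of 1 donor sex and 0.0982 within islets.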

Additional observations from a re-analysis of the deposited data

Results flagged for a closer look

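Slc16a1 in P12.5 islets read 4.7, 4.7, 4.9 and 4.7, so that array 3 stood apart from the other 3 by the whole range of the group (gap over range of 1). The gap is 2 steps of the rounding, near the lower quartile of the arrays. A gap over range of 1 needs the other 3 values to be equal, which rounding to 1 decimal makes easier. How often chance gives this with values rounded to 1 decimal was not worked out.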

How the results depend on the processing

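The counts of members called in the 4 comparisons of grafts with islets were 7, 7, 8 and 7 (female NP, female P12.5, male NP, male P12.5). They were the same, except 8 in male P12.5 grafts with no fold minimum, under renewed normalization, the filter on low values, other moderation, other probe sets, fewer arrays in the fit and the replicate block. Leaving out 1 array gave 7 to 7, 5 to 8, 7 to 8 and 7 to 8 for these comparisons, and 0 members were called in each of the other comparisons. Without P12.5 graft arrays 3 of both donor sexes, a choice made after the data were seen, the P12.5 counts were 7 and 7. With the kidney mean as a covariate the 4 counts were 1, 4, 5 and 3, with the immune mean 1, 0, 1 and 0, and with the stromal mean 2, 0, 1 and 0, in either direction. The calls with the immune mean are of Smad3 called lower, and 1 of the 2 with the stromal mean is Acot7 called lower, so that Slc16a1 is the 1 member called higher with it in NP grafts of each donor sex. With the immune mean 2 members were called higher at P12.5 in male grafts, Igfbp4 (0.85, adjusted p = 0.0482) and Maf (1.01, adjusted p = 0.0289), and 0 were called with the kidney or the stromal mean. Of 45 relations with marker lists 29 passed, and 19 to 29 did so without 1 array. Deviations of same-numbered arrays from their group means correlated at -0.242 to 0.375. Arrays 2 and 3 of female and male P12.5 grafts (0.278 and 0.375) matched their own number best, but in no pair of groups were all same-numbered arrays above 0.1, so the numbers were not taken to pair samples. The replicate block changed no member's call.

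Changes that were called in either fit turned below 0 with a covariate as follows. Those of Acot7 and Smad3 that were called in neither also did so with the immune or stromal mean (-1.16 to -0.54). With the immune mean, female NP grafts gave Ldha -0.30, Maf -0.54, Smad3 -0.88, Zfp36l1 -0.76 and Oat -0.25. Female P12.5 grafts gave Ldha -0.44, Maf -0.45, Zfp36l1 -0.76 and Oat -0.60. Male NP grafts gave Ldha -0.46, Igfbp4 -0.86, Maf -1.19, Smad3 -0.999, Zfp36l1 -1.05 and Oat -0.78, and male P12.5 grafts Ldha -0.30, Igfbp4 -0.010, Maf -0.19, Zfp36l1 -0.57 and Oat -0.37. With the stromal mean, female NP grafts gave Ldha -0.077, Acot7 -0.87, Zfp36l1 -0.35 and Oat -0.17. Female P12.5 grafts gave Ldha -0.25, Zfp36l1 -0.41 and Oat -0.58. Male NP grafts gave Maf -0.11, Smad3 -0.27 and Oat -0.17, and male P12.5 grafts Ldha -0.21, Zfp36l1 -0.45 and Oat -0.53. The cause was not tested. Of 1881 member changes under an alternative, 1799 kept their side of the threshold, among them 202 that were not called and changed sign, 44 lost a call, 5 gained one and 33 are the changes of sign given above.

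Fcgrt was not analysed here. Islet levels of Slc16a1 and Mgst1 lie near the lower quartile of the arrays, so their folds are compressed.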
